A study of Drosophila melanogaster with 24 samples.

Results

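The X chromosome of Drosophila melanogaster is described here as a territory for CLOCK (CLK) and CYCLE (CYC), through every ChIP-seq peak called on the arm X in 12 deposited lists. Peaks with a midpoint in a window of 20 kb around the clock gene period were left out. This gave 8899 of the 58157 peaks of all lists, with 55 peaks in the window itself and 46085 on the 4 autosomal arms 2L, 2R, 3L and 3R. Each list came from 1 chromatin pull-down with a V5 antibody, made from either heads or bodies of the strains Clk, cyc or w-. The first 2 strains carried V5-tagged CLK or CYC, and w- flies carried no tag, so that their pull-down served as a mock. All flies were 5 to 10 days old, lived at 25 °C in cycles of 12 h light and 12 h dark, and were frozen at ZT13, 1 h after lights-off. Each of the 6 groups (head CLK, head CYC, body CLK, body CYC, head mock, body mock) had 2 pull-downs, which the study describes as biological replicates. The labels give neither the sex of the flies nor the promoter that drives the tagged proteins. The lists hold no marker by which heads and bodies could be checked against their labels.

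CLK and CYC are bHLH-PAS proteins that bind E-box elements as a pair and switch on period, timeless, vrille and Pdp1. The PERIOD and TIMELESS proteins later feed back to inhibit the pair, and early night is a time at which its binding is known to be high. The X chromosome is carried in a single copy by males, in which the dosage compensation complex raises its transcription. Apart from period, which was left out, the positions below carry no gene names, because the lists are in the dm3 build and the gene table at hand is for another. No sequence is shown for the same reason.

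Depth is unknown, since the lists hold no read counts, and the head lists were longer than the body lists. X peaks numbered 2461 and 733 in head CLK, 1546 and 613 in head CYC, 350 and 160 in body CLK, and for CYC in bodies 661 and 166 (replicates 1 and 2). The mock lists held 2015 and 157 X peaks in heads and 17 and 20 in bodies. Replicate 1 thus held more X peaks than replicate 2 in each tagged group, and head mock replicate 1 held more than 7 of the 8 tagged lists. Whole lists differed in length too. Tagged head lists held 4609 to 13729 peaks, against 12082 and 1726 in head mock. Tagged body lists held 1153 to 3967 peaks, against 73 and 175 in body mock. Tagged lists held 5.42-fold more X peaks than mock lists of the same tissue, 2.03-fold in heads and 14.5-fold in bodies. This X number takes no account of list length, so it is not a trait of X alone. The exact permutation test within tissue gave a two-sided p of 0.0222 and an adjusted p of 0.0833 (n = 8 and 4), where Benjamini-Hochberg adjustment covered all 15 tests of X peaks. None of the 15 tests reached an adjusted p of 0.05, although 4 had an unadjusted p under 0.05. Tests of CLK against CYC and of heads against bodies cannot give a p under 0.0556 and so could not be called. The log2 difference was 1.52 without head mock replicate 2 and 3.36 without head mock replicate 1, against 2.44 with all libraries.

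X held fewer peaks per Mb than the autosomal arms in each of the 8 tagged libraries. The length of an arm was taken as the span from the first to the last peak of all lists, 22.4 Mb for X and 95.6 Mb for the 4 autosomal arms together, so that X made up 19.0% of the 5 arms. In head CLK, X held 110 and 32.7 peaks per Mb, against 112 and 39.8 on the autosomal arms. In head CYC, X held 69.0 and 27.4 peaks per Mb, against 98.9 and 42.2. The X density was therefore close to that of the autosomes in head CLK replicate 1 and below it in the other 3 head libraries. Body CLK had 15.6 and 7.14 peaks per Mb on X, against 21.6 and 10.3 on the autosomal arms. Body CYC had 29.5 and 7.41 peaks per Mb on X, against 34.4 and 11.4. X was the arm with the lowest density in 7 of the 8 tagged libraries and took place 3 of 5 in head CLK replicate 1. The ratio of X to autosomal density ran from 0.649 to 0.982 over the 8 libraries, with a median of 0.711. Its mean on the log2 scale was -0.41 ± 0.21 (SD, n = 8), with an exact sign-flip permutation p of 0.00781, the smallest that 256 arrangements allow, and an adjusted p of 0.0586. The test measures the spread between libraries, which all share the same X and the same autosomal arms.

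**Figure D1:**
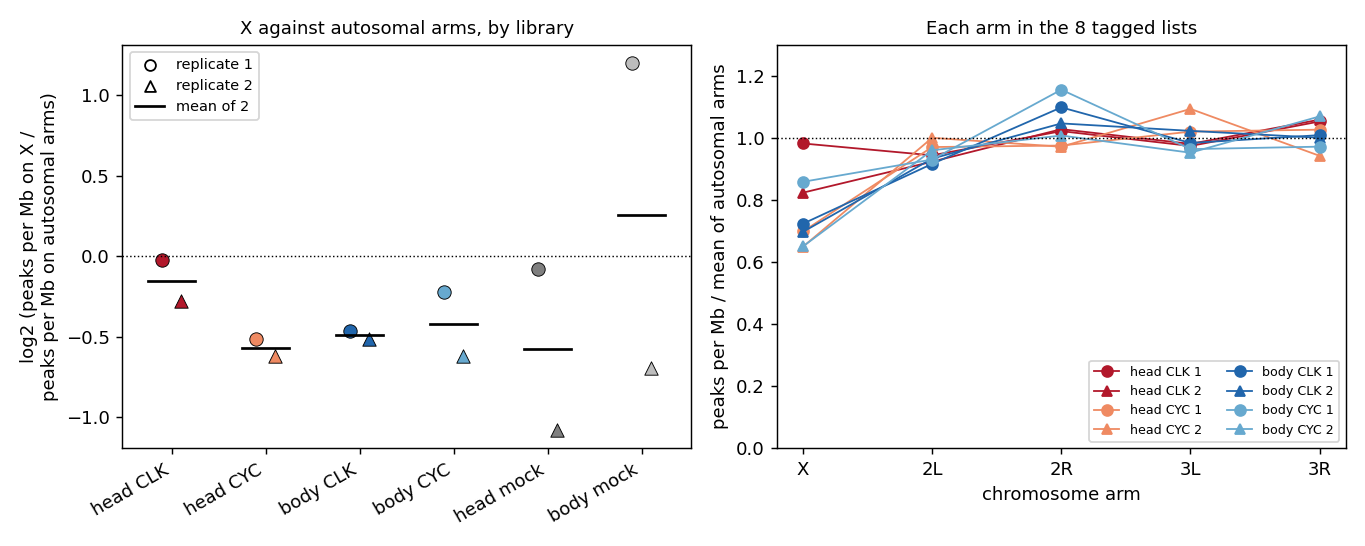
Left, log2 ratio of peaks per Mb on X to peaks per Mb on the autosomal arms in each of the 12 libraries, with the mean of the 2 replicates as a bar. Right, peaks per Mb on each arm of the 8 tagged libraries, divided by the value over the 4 autosomal arms. All 8 tagged libraries lie under 0 on the left, the 4 mock libraries run from -1.08 to 1.20, and X is the lowest arm in 7 of 8 tagged libraries on the right.

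The mock pull-downs did not agree on how X compares with the autosomes. The density ratio was 0.947 and 0.473 in head mock and 2.30 and 0.618 in body mock, so that tagged values lay within the range of the mocks. The value of 2.30 came from body mock replicate 1, with 17 X peaks and 32 autosomal peaks. Tagged libraries had a mean log2 ratio of -0.41 ± 0.21 (SD, n = 8), against -0.16 ± 1.00 in mock libraries (n = 4), a difference of -0.25 (exact permutation p = 0.551, adjusted 0.689). The difference turned to 0.23 without body mock replicate 1 and to 0.00 without head mock replicate 1. It was 0.22 within heads and -0.71 within bodies, and -0.87 for replicate 1 and 0.38 for replicate 2. A density ratio under 1 was thus also measured in 3 of the 4 pull-downs from flies without a tag.

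In heads the X share was larger in both CLK libraries than in both CYC libraries. X made up 18.7% and 16.2% of the main-arm peaks of head CLK, against 14.1% and 13.2% in head CYC, and the groups do not overlap. In bodies the shares were 14.5% and 14.04% for CLK, against 16.7% and 13.2% for CYC, which lie on either side. Over both tissues the mean log2 density ratio was -0.32 ± 0.22 for CLK and -0.49 ± 0.19 for CYC (SD, n = 4 each), a difference of 0.17 (exact permutation p = 0.333, adjusted 0.455). This design cannot give a p under 0.0556. The difference was 0.07 without body CYC replicate 2, 0.11 without head CLK replicate 1 and 0.27 without body CYC replicate 1. It was 0.42 within heads and -0.07 within bodies, and the difference between tissues was not tested. Heads and bodies had mean log2 ratios of -0.36 ± 0.27 and -0.46 ± 0.17 (SD, n = 4 each), a difference of 0.09 that was smaller than the spread (exact permutation p = 0.611, adjusted 0.705). The number of X peaks was 4.07-fold higher in heads than in bodies (exact permutation p = 0.111, adjusted 0.208). With every tagged list cut to its best 1153 peaks, the log2 difference in number was -0.03, against 2.03 for whole lists.

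Few of the strongest peaks of the tagged lists were on X. Peaks are ranked here by the first of the 2 scores deposited for each peak, whose scale is not given. Among the 100 best main-arm peaks of a list, X held 10 and 9 in head CLK, 12 and 12 in head CYC, 12 and 8 in body CLK, and for CYC in bodies 11 and 8. Head mock held 13 and 12 and body mock replicate 2 held 12 in the same place, and body mock replicate 1 has fewer than 100 main-arm peaks. Among the 500 best, X held 12.2% to 14% in the 8 tagged lists, 14.8% in head mock replicate 1 and 8.60% in head mock replicate 2. The share among the 100 best was below the share of the whole list in every tagged library. Of the 20 best main-arm peaks 1 was on X in each head list and each body CLK list and 0 in both body CYC lists, against 3 to 8 in the 4 mock lists. The highest first score on X was 472 and 197 in head CLK, 168 and 90.1 in head CYC, 97.5 and 70.0 in body CLK, and for CYC in bodies 110 and 72.0. On the autosomal arms the highest first score ran from 612 to 1786 in the 8 tagged lists. The period window was left out on X, while the autosomal arms kept all their peaks, clock genes included. In the mock lists the highest first scores were nearer to each other, with 48.2 and 10.4 on X against 44.8 and 11.1 on the autosomal arms in heads, and 28.8 and 13.97 on X against 41.2 and 16.2 in bodies.

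**Figure D2:**
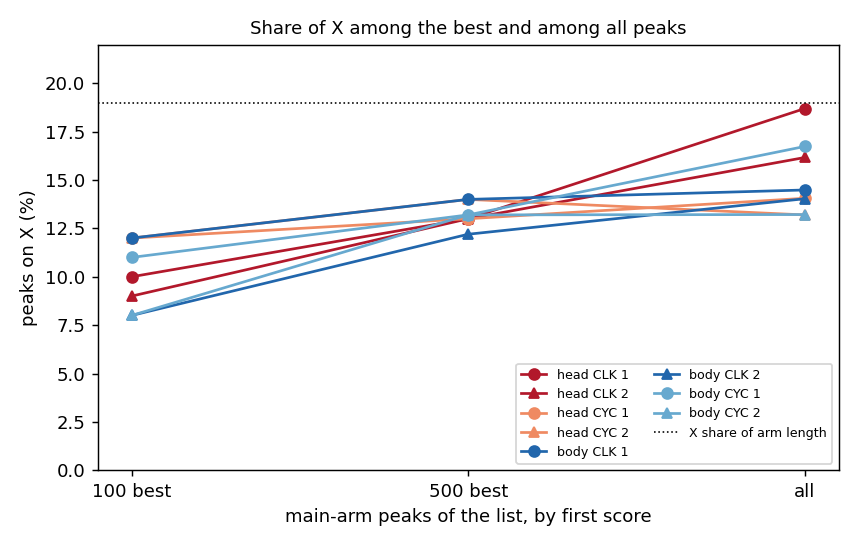
Share of peaks on X among the 100 best, the 500 best and all main-arm peaks of the 8 tagged lists, ranked by first score, with the X share of arm length (19.0%) as a dotted line. All lists start at 8 to 12% and stay under the dotted line, and head CLK replicate 1 comes closest to it with 18.7% of all peaks.

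Over whole lists the median X peak ranked slightly below the median autosomal peak in 7 of 8 tagged libraries. The rank of a peak is given in percent of its list, with 0 for the best, and the median rank of X peaks is set against that of autosomal peaks of the same list. The X median was lower in the list by 1.52 and 1.77 percentage points in head CLK, 2.25 and 4.75 in body CLK, and for CYC in bodies 4.32 and 1.43. In head CYC the differences were 0.54 and -0.44, so that replicate 2 went the other way. The mean difference was 2.02 ± 1.76 points (SD, n = 8, exact sign-flip permutation p = 0.0156, adjusted 0.0781). It was 0.44 points when peaks were ranked by the second score, 0.11 without peaks that have a mock peak and 0.83 at equal list length. Head lists had a mean difference of 0.84 ± 1.01 points, against 3.19 ± 1.60 in body lists (SD, n = 4 each, exact permutation p = 0.0556, the smallest possible, adjusted 0.167). This difference of -2.34 points was -1.13 at equal list length and -0.64 by the second score. Tagged and mock lists differed by 4.17 points (exact permutation p = 0.0844, adjusted 0.181); the difference was -2.43 within heads and 10.78 within bodies, so the tissues went opposite ways. In first scores the differences were small, with X medians of 3.01 to 7.89 in the 8 tagged lists and the X median below the autosomal one in 7 of them.

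The share of peaks with a close neighbour was lower on X than on the autosomal arms in each tagged library. A neighbour is another peak of the same list and arm with its midpoint within 5000 bp. The share of X peaks with a neighbour was 84.6% and 63.6% in head CLK, with 78.7% and 58.1% in head CYC, against 85.4% and 65.5% and 82.8% and 65.0% on the autosomal arms of the same lists. In bodies it was 58.9% and 35.6% for CLK and 68.2% and 39.2% for CYC, against 64.7% and 47.9% and 72.0% and 49.2% on the autosomal arms. X minus autosomal arms ran from -12.2 to -0.87 percentage points over the 8 libraries. X was the last of the 5 arms in 6 of them and place 4 in both head CLK libraries. The mean difference was -5.72 ± 3.89 points (SD, n = 8, exact sign-flip permutation p = 0.00781, adjusted 0.0586). The X median gap between neighbouring midpoints ran from 2007 bp in head CLK replicate 1 to 57692 bp in body CYC replicate 2 and was wider than the autosomal gap in each tagged list. X also had the lower density in these 8 libraries, whose part in the spacing was not tested. The difference of X from the autosomal arms was -5.72 points in tagged lists and 3.81 ± 14.2 points in mock lists (exact permutation p = 0.0800, adjusted 0.181), and it was 22.1 points in body mock replicate 1 alone. Without that library the difference between tagged and mock was -5.45 points, against -9.53 with it. Without body mock replicate 2 it was -13.6 points. Tagged minus mock was 2.81 points within heads and -21.9 points within bodies, so the tissues went opposite ways.

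**Figure D3:**
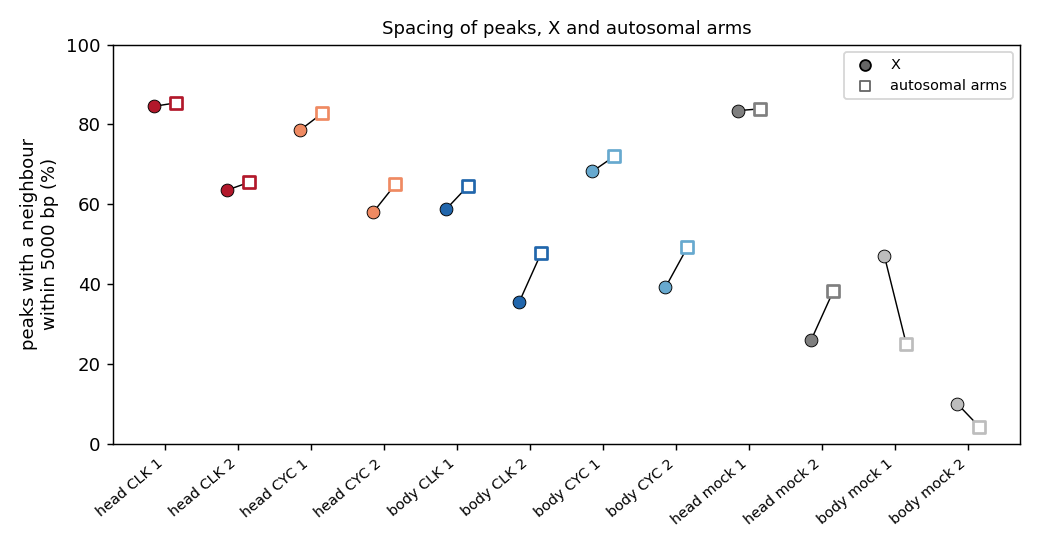
Share of peaks with another peak of the same arm within 5000 bp, on X (filled circles) and on the autosomal arms (open squares), in the 12 libraries. The circle lies under the square in all 8 tagged libraries and both head mock libraries and above it in both body mock libraries, which hold 17 and 20 X peaks.

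Replicates agreed on X about as often as elsewhere when the shorter list was searched for in the longer one. For head CLK 83.6% of the 733 replicate 2 peaks on X (95% interval 80.7 to 86.2, exact binomial, counting error only) overlapped a replicate 1 peak by 1 bp or more, against 81.7% on the autosomal arms. The share was 48.5% on X and 48.0% on the autosomal arms for head CYC and 57.2% and 57.0% for body CYC. For body CLK it was 41.3% on X (33.5 to 49.3), against 50.6% on the autosomal arms (47.4 to 53.8). Counted from the longer replicate 1 lists, the X share was below the autosomal one in all 4 tagged groups, with 25.8% against 30.1% in head CLK, 19.7% against 21.4% in head CYC, 18.9% against 25.5% in body CLK and 14.8% against 20.4% in body CYC. Peaks are not replicates, so these shares carry no test between X and the autosomal arms.

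Mock peaks lay at many X sites in heads and at few in bodies. Of the replicate 1 peaks on X that replicate 2 also held, 268 of 636 in head CLK (42.1%, 38.3 to 46.1) and 174 of 305 in head CYC (57.0%, 51.3 to 62.7) overlapped a head mock peak, against 46.3% and 60.9% on the autosomal arms. Nearly all of this came from head mock replicate 1, since mock replicate 2 alone covered 2.52% and 5.25% of the same X peaks. In bodies 1 of 66 CLK peaks and 1 of 98 CYC peaks on X overlapped a body mock peak. On the autosomal arms 3 of 526 and 7 of 672 did. The body mock lists hold only 17 and 20 X peaks, which limits how many overlaps could be found. Among the X peaks without a mock peak, the partner was found at 95 of 131 head CYC peaks (72.5%, 64.0 to 80.0), against 60.6% on the autosomal arms (57.1 to 64.0). From the other side, 95 of 368 head CLK peaks (25.8%) overlapped a CYC peak, against 27.7% on the autosomal arms. In bodies the partner was found at 30 of 65 CLK peaks (46.2%) and 31 of 97 CYC peaks (32.0%) on X, against 50.9% and 39.5% on the autosomal arms. Between tissues, 34 of 65 body CLK peaks on X (52.3%, 39.5 to 64.9) overlapped such a head CLK peak, against 31.2% on the autosomal arms (27.2 to 35.3). For body CYC the share was 21 of 97 (21.6%, 13.9 to 31.2), against 25.7%. From the head side the shares were 33 of 368 for CLK (8.97%) and 22 of 131 for CYC (16.8%) on X, against 9.29% and 20.3% on the autosomal arms.

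Overlapping peaks from any of the tagged lists were joined into regions, which gave 3474 regions on X among 20822 on the 5 arms (16.7%). Few regions that every tagged list held lay on X. They numbered 14 of 169 (8.28%, 95% interval 4.60 to 13.5, counting error only), or 0.403% of the X regions, where 0.812% of all regions of the 5 arms and 0.893% of the autosomal ones qualified. X held 0.625 such regions per Mb and the autosomal arms 1.62. The count was 26 of 231 without body CLK replicate 2 and 23 of 203 without body CYC replicate 2, with X shares of 11.3% in both cases. From the replicate 1 lists alone it was 64 of 439 (14.6%). Regions in all 4 tagged head lists numbered 187 on X (5.38% of X regions, against 6.22% of all), and 98 of the 187 (52.4%) had a mock peak, against 59.6% of the autosomal ones. Regions in all 4 tagged body lists numbered 32 (0.921% of X regions, against 1.44% of all), of which 6 (18.8%) had a mock peak, against 38.8% of the autosomal ones. A mock peak here is one in any of the 4 mock lists, head mock included. No body mock peak lay at 31 of these 32 X regions and at 265 of the 268 autosomal ones. Of the regions in all 8 lists, 4 of 14 on X and 74 of 155 on the autosomal arms (47.7%) had a mock peak. With all such regions removed X held 10 of 91 (11.0%). A further 30 X regions were held by exactly 7 tagged lists, which is 0.864% of the X regions against 0.801% of the autosomal ones. Of those 30, the missing list was body CLK replicate 2 for 12, body CYC replicate 2 for 9 and head CYC replicate 2 for 6 of them. The lower share on X was thus not seen at 7 lists, but it was seen at 6, 5, 4 and 3. For exactly 6 lists it was 0.892% of X regions against 1.01% of autosomal ones, and for 5 lists 1.07% against 1.59%. For 4 lists it was 5.44% against 5.93%, and for 3 lists 10.6% against 11.1%. Regions of only 1 or 2 lists made up a larger share on X than on the autosomal arms.

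With the period window left out, the 14 X regions held by every tagged list stood low among the 169. The autosomal arms kept their clock genes. With the window kept in, 18 of 173 regions of all 8 lists were on X, and places were not computed for that set. In the window the highest first score ran from 255.6 to 902.4 over the tagged lists. Of the 14 outside it, none was among the 20 best, 3 were among the 50 best and 5 among the 100 best. The best of the 14 took place 30. The median of their mean ranks over the 8 lists was 449.5, against 283 for the autosomal ones. Leading them was X 9477993 to 9478344, with first scores of 142 and 55.4 in head CLK, 39.3 and 30.8 in head CYC, 29.1 and 16.0 in body CLK, and for CYC in bodies 38.9 and 28.6. As a share of list length, its rank was 0.583% to 1.89% in the head lists, against 2.32% to 11.1% in the body lists. The body lists are shorter, and the CYC ranks themselves were close, at 90 and 68 in heads and 92 and 71 in bodies. A close neighbour, X 9477533 to 9477873, stood far further up the body CYC lists. Its first scores were 12.7 and 9.91 in head CLK, and for CYC in heads 7.65 and 9.84, against 32.4 and 15.5 in body CLK, and for CYC in bodies 95.03 and 63.9. Its rank was 9.23% and 6.13% of list length in head CYC, against 0.781% and 1.96% in body CYC. Neither site has a peak in a mock list.

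Lists differ in length, so ranks are set against each other between tissues below as a share of list length. That share itself depends on how far down a list reaches. The second by rank, X 12404962 to 12405290, gave 38.7 and 34.9 in head CLK, and for CYC in heads 31.7 and 48.9, against 47.1 and 24.8 in body CLK, and for CYC in bodies 110 and 72.0. It is the highest X peak of both body CYC lists, at ranks 24 and 22. As a share of list length its rank was 3.70% and 4.25% in head CLK, against 2.14% and 5.38% in body CLK, so the replicates went opposite ways. The highest X peak of both body CLK lists, at ranks 19 and 15, was X 17179125 to 17179474. In heads CLK gave it a first score of 33.4 and 20.9, and CYC one of 5.59 and 6.31. In bodies CLK gave 97.5 and 70.0 and CYC gave 77.3 and 33.3. Its rank was 4.36% to 18.1% of list length in the head lists, against 0.781% to 4.47% in the body lists. Head mock replicate 2 has a peak of 2.18 there. At X 8663129 to 8663464 the rank was 16.9% and 13.7% in head CLK, against 3.62% and 3.56% in body CLK, while head CYC had 2.23% and 2.72%, against 2.02% and 4.55% in body CYC. Places 3, 4 and 5 by rank were taken by X 7986030 to 7986370, X 12629103 to 12629462 and X 21152084 to 21152553. The last of these leaned to heads, with 65.0 and 59.6 in head CLK, and for CYC in heads 26.9 and 37.5, against 14.8 and 5.54 in body CLK, and for CYC in bodies 21.96 and 22.2. The others among the 10 best were X 5774169 to 5775033, X 15208111 to 15208460 and X 1360682 to 1361221. Head mock replicate 1 has a peak at X 12629103, X 21152084 and X 15208111, so 4 of the 14 have a mock peak in all.

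**Figure D4:**
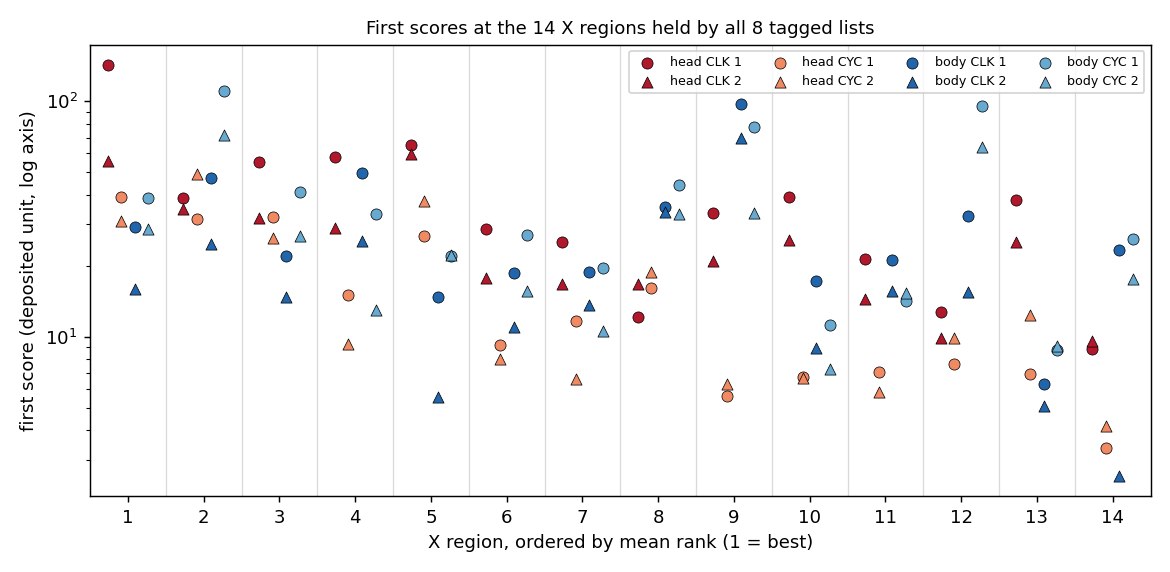
First scores (log axis, unit as deposited) at the 14 X regions held by all 8 tagged lists, ordered by mean rank, with 1 point per library. Region 1 is highest in head CLK, whereas regions 2, 8, 9, 12 and 14 have their highest points in bodies.

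At these shared X regions the first score was higher for CLK than for CYC in both head replicates at 12 of the 14 and lower in both at 1. In bodies it was higher for CLK in both replicates at 4 and lower in both at 8. Scores of different lists have no common scale, and the autosomal regions of the same kind did likewise, with CLK higher in both head replicates at 135 of 155 (87.1%) and CYC higher in both body replicates at 86 (55.5%). The midpoints of CLK and CYC peaks lay a median of 13 to 23.5 bp apart at the 14 regions. Over all regions that a CLK list and the CYC list of the same tissue and number both held, the log2 ratio of the scores was larger on X than on the autosomal arms by 0.10 and 0.17 in heads and by -0.01 and 0.08 in bodies.

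A head-only region has a peak in all 4 tagged head lists, in no tagged body list and in no mock list. X held 48 of 274 (17.5%, 13.2 to 22.5), which is 1.38% of its regions, against 1.32% over the 5 arms. The X share was 11.8% above the median first score and 22.2% above the median second score. The best was X 11677107 to 11677435, with first scores of 279 and 109 in head CLK, and for CYC in heads 78.3 and 34.9, ranks 27 to 56. A doublet came next, with X 8018149 to 8018483 at place 2 (117 and 44.5 in head CLK, 37.1 and 33.4 in head CYC) and X 8017788 to 8018142, which ends just before it, at place 5 (43.3 and 22.3 in head CLK, 11.8 and 9.43 in head CYC). Places 3 and 4 went to X 14131568 to 14131890, at ranks 178 to 276, and X 495732 to 496366, at ranks 303 to 434. Places 6 to 10 went to X 18457382 to 18457711, X 18259051 to 18259386, X 8805641 to 8805967, X 3488124 to 3488458 and X 2456807 to 2457204. These 5 ranked at 2.25% to 4.19% of list length in head CLK replicate 1, against 5.92% to 13.5% in head CYC replicate 1, and at 6.47% to 8.59% in head CLK replicate 2, against 12.3% to 27% in head CYC replicate 2. The count was 114 of 695 (16.4%) without head mock replicate 1 and 97 of 605 (16.0%) without head CYC replicate 2. The body lists are short, and a missing body peak means only that none was called.

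Only 3 body-only regions lay on X, among 33 on the 5 arms (0.0864% of X regions, against 0.158% of all). The best, X 9094157 to 9094470, had first scores of 37.1 and 9.73 in body CLK, and for CYC in bodies 36.4 and 14.01, at ranks 79 to 306. The others, X 19202205 to 19202584 and X 15634460 to 15634839, were weak, with first scores of 2.81 to 9. Without body CLK replicate 2 the count was 11 of 80 (13.75%), and without body CYC replicate 2 it was 10 of 86 (11.6%).

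X held a larger share of the head regions with CLK alone than of those with CYC alone. Regions in both head CLK lists, in neither head CYC list and without a head mock peak numbered 157 on X of 770 (20.4%, 17.6 to 23.4), which is 4.52% of X regions against 3.7% over the 5 arms. Those with CYC and without CLK numbered 14 of 130 (10.8%, 6.01 to 17.4), or 0.403% of X regions against 0.624%. In bodies X held 5 of 62 regions with CLK alone (8.06%, 2.67 to 17.8) and 28 of 173 with CYC alone (16.2%, 11.0 to 22.5). That is 0.144% and 0.806% of X regions, against 0.298% and 0.831% over the 5 arms. Regions with both factors in both replicates and no mock peak of the tissue numbered 89 of 539 in heads (2.56% of X regions, against 2.59% of all) and 31 of 296 in bodies (0.892% of X regions, against 1.42% of all). None of these differences was tested across libraries.

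**Figure D5:**
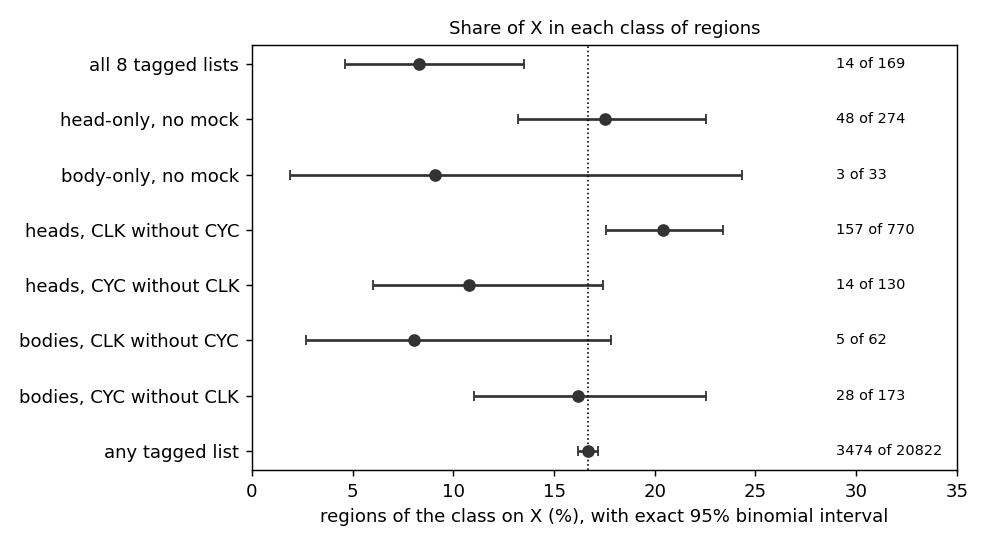
Share of X among the regions of each class, with the exact 95% binomial interval, which covers counting error only, and the counts at the right. The dotted line is the X share among regions of any tagged list (16.7%). The interval for regions of all 8 lists lies below the line, and that for head regions with CLK alone lies above it. Not drawn are regions of all 4 head lists (12.6 to 16.5), of all 4 body lists (7.41 to 14.7) and of both factors in bodies (7.23 to 14.5). Their intervals also lie below 16.7%.

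The best regions with a single factor had lower first scores than the best shared ones. In heads the 5 best with CLK alone were X 13170967 to 13171289 (first scores 42.9 and 11.9), X 3581944 to 3582307 (32.5 and 13.2), X 3583112 to 3583434, X 8791903 to 8792597 and X 3567515 to 3568349. The 5 best with CYC alone were X 8412566 to 8412894 (5.63 and 7.91), X 6745 to 7219 (6.14 and 4.82), X 97603 to 97897, X 7828556 to 7829009 and X 10417 to 10826. Of these 5, 3 lie within the first 100 kb of the arm, and the last has a peak in body mock replicate 2. In bodies the best with CYC alone was X 13220905 to 13221276 (18.2 and 11.0), which all 4 head lists also held. It was followed by X 3566060 to 3566425 (16.4 and 11.5), X 11321286 to 11321610, X 387544 to 387963 and X 7986636 to 7987444. All 5 had a peak in head CLK replicate 1, with first scores of 12.9 to 85.6. The 5 body regions with CLK alone were X 13282986 to 13283401, X 5321298 to 5321606, X 8788131 to 8788626, X 2090358 to 2090666 and X 17080565 to 17081016, with first scores of 2.94 to 8.47.

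The run with the most X sites was X 3566060 to 3591148. Regions held by both replicates of any tagged group numbered 777 on X, and 43.2% of them lay in runs of 3 or more with gaps of at most 5000 bp, against 46.9% of 4210 on the autosomal arms. This stretch of 25088 bp had 20 of them, against 24 in the largest autosomal run. Holding by both replicates of a group chose the 777. Head CLK held 609 of them (78.4%), head CYC 297 (38.2%), body CLK 66 (8.49%) and body CYC 94 (12.1%). On the autosomal arms the shares were 72.2%, 45.1%, 11.9% and 14.5%. In the run, 13 of the 20 regions had entered through head CLK alone, against 393 of the 777. Both head CLK lists held all 20, with median first scores of 29.045 and 11.9. Head CYC held 13 in replicate 1 and 3 in replicate 2, body CLK held 6 and 6, and body CYC held 7 and 7. Its last region, X 3590823 to 3591148, was the highest X peak of all 4 head lists. There the first score was 472 and 197 in head CLK, and for CYC in heads 168 and 90.1, at ranks 11 to 16. In body CLK it was 12.98 and 17.6, in body CYC replicate 1 it was 16.3, and body CYC replicate 2 has no peak. Head mock replicate 1 has a peak of 6.64 there, at rank 1784 of its list, and 8 of the 20 regions have a head mock peak.

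The other runs with the most regions were chosen in the same way, so that their make-up follows that of the 777. X 8766728 to 8792597 had 13 regions, of which both head CLK lists held 11, both head CYC lists 6, both body CLK lists 1 and both body CYC lists 2. X 2539806 to 2557988, on one flank of the period window, had 9, all in head CLK and 1 in head CYC. X 9484280 to 9495735 had 8 and X 11315082 to 11325302 had 7, with a head mock peak at 7 and 6 of them. On the edges of the window that was left out, the nearest X peaks before it had midpoints of 2559990 in head CLK replicate 1 (first score 8.05) and 2559988 in head mock replicate 1 (2.62). The nearest after it were at 2601494 in head CYC replicate 1 (5.05) and 2601507 in head CLK replicate 1 (8.68). Just inside it lay peaks at 2570275 and 2587179, both in head CLK replicate 1, with first scores of 2.69 and 2.73.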

How the data were processed

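The members, lists and tests were chosen with earlier results of these data known. Reads were mapped with Bowtie 0.12.7 to dm3, per the submitters' processing notes. Each list is named for 1 pull-down and the input with which it shares tissue, strain and replicate. The peak caller is not given in the sources used here. The authors deposited 2 unnamed values per peak, each treated as a score without a known scale and at 2 or above in every list. Sonication took 6 rounds in heads and 4 in bodies, per the labels' protocols. Inputs have no list of their own and were not analysed here.

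From the lists, 4 measures were computed per library. They are log2(X peaks + 1), the log2 ratio of X to autosomal density with 0.5 added to each count, the difference in median rank, and the difference in the share with a neighbour within 5000 bp. The last 2 needed 5 X peaks. Differences were averaged over tissues (or factors) and tested by exact two-sided permutation within them. X was set against the autosomal arms by exact sign flips. The 15 p-values were adjusted by Benjamini-Hochberg. Regions follow 1 bp overlaps and runs follow gaps of at most 5000 bp. The rule for named regions takes the 10 best by mean rank in all 8 tagged lists, head-only and body-only. It also takes the 5 best with 1 factor alone in each tissue and the 5 best in both mock lists. Further members are the highest X peak of each list, the 5 runs with the most regions and the peaks beside the period window. The density ratio and the counts of regions in all 8 lists, head-only and body-only were checked on simulated lists. Rank, spacing and the other region classes were not. Intervals are exact 95% binomial. Python 3.11.15, numpy 2.4.6, pandas 2.3.3 and scipy 1.17.1 were used.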

Additional observations from a re-analysis of the deposited data

Results flagged for a closer look

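Heads and bodies went opposite ways when the rank of X peaks was compared between tagged and mock lists. In heads the X median lay lower in the list than the autosomal median by 1.52, 1.77, 0.54 and -0.44 percentage points in the 4 tagged lists, against 2.35 and 4.2 points in the mock lists, a difference of -2.43. In bodies it lay lower by 2.25, 4.75, 4.32 and 1.43 points in the tagged lists, against -8.90 and -6.29 points in the mock lists, a difference of 10.78. Every tagged list is below both mock lists in heads and above both in bodies, and the difference between tissues was not tested. The body mock values rest on 17 and 20 X peaks.

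The period window, which was left out of all comparisons, holds the highest X peaks of the tagged lists. Its highest first score was 761.8 and 436.7 in head CLK, 449.2 and 421.5 in head CYC, 354.9 and 255.6 in body CLK, and for CYC in bodies 902.4 and 541.1, against 7.02 in head mock replicate 1 and no peak in the other 3 mock lists.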

How the results depend on the processing

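None of the 15 tests reached an adjusted p of 0.05 under any alternative. Tests of CLK against CYC and of heads against bodies cannot give a p under 0.0556, so they could not be called under any setting. The X density relative to the autosomal arms stayed negative under all 16 alternatives (-0.46 to -0.38 without single libraries), as did the X spacing (-6.41 to -4.79 without single libraries). Signs turned in these cases. For CLK minus CYC in X peak number (-0.01) the value was 0.49 above the median first score, 0.03 above the median second score, 0.17 at equal list length, 0.15 without peaks that have a mock peak, and -0.51 to 0.49 without single libraries. The mean X rank difference kept its sign, and ran from 0.11 to 4.75 points over the alternatives that keep all libraries. At equal list length, head minus body was -0.03 for number, -0.01 for density and -1.16 points for spacing, against 2.03, 0.09 and 4.48 for whole lists. As odds of X in the whole list, tagged minus mock was 0.01. Without single libraries, tagged minus mock in density ran from -0.72 to 0.23, head minus body in density from -0.01 to 0.19, and CLK minus CYC in spacing from -0.60 to 2.61 points.

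Counts of X regions moved more, and the counts over the 5 arms moved too. Above the median first score head-only regions numbered 26 (X share 11.8%). Above the median second score the regions of all 8 lists numbered 2 (3.92%), head-only 26 (22.2%) and body-only 1 (7.14%). With the period window kept in, 18 of 173 regions of all 8 lists were on X (10.4%). At equal list length, regions of all 8 lists, head-only and body-only numbered 7 of 111 (6.31%), 10 of 53 (18.9%) and 7 of 58 (12.1%). Replicate 1 lists alone gave, in the same order, 64 of 439 (14.6%), 233 of 1547 (15.1%) and 97 of 619 (15.7%). Replicate 2 lists alone gave 172 of 1101 head-only (15.6%) and 7 of 69 body-only regions (10.1%). With mock peaks ignored, 119 of 776 head-only regions were on X (15.3%). Without single libraries the counts ran from 14 to 26, from 48 to 114 and from 3 to 11. The highest were 26 of 231, 114 of 695 and 11 of 80 on the 5 arms. Causes were not tested, beyond the fewer peaks or lists that a setting leaves.

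Replicate numbers recur in all groups, but no label says that they mark a shared batch, and each comparison has only 2 pairs. Over X regions, the replicate 1 minus replicate 2 difference in presence correlated by 0.157 to 0.349 between head groups and by 0.166 between body CLK and body CYC, against -0.224 to 0.016 between tissues or with body mock. With the replicate block, X density against the autosomal arms was -0.41 with an exact permutation p of 0.125, the smallest that test allows. No call changed, but with that block only tests of tagged against mock can give a p under 0.125. Depth is unknown for all lists.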

Other observations

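With X cut into 4 equal stretches, the one at the high-coordinate end held the fewest peaks in each tagged list. It held 15.1% to 20.0% of X peaks in the 8 tagged lists, 17.7% and 11.5% in head mock and 0.00% and 30.0% in body mock. The second stretch held 25.4% to 34.3% in the tagged lists.

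The leading X sites of the mock lists also had peaks in tagged lists. In body mock replicate 1, 11 of 17 X peaks lay within 165653 bp, X 5641568 to 5807221, with first scores of 2.32 to 12.9. That stretch held from 1 to 18 peaks in the tagged lists, 16 and 5 in head mock and 0 in body mock replicate 2. Both body mock lists have 0 X peaks in common. Their 32 and 141 autosomal peaks also have 0 in common, so this is not particular to X. For head mock, the share of replicate 2 peaks found in replicate 1 was larger on X (55 of 157) than on the autosomal arms (438 of 1420). Counted from replicate 1 it was smaller on X (58 of 2015, against 452 of 9083). The head mock lists shared 55 X regions, led by X 9360508 to 9360817. There the first score was 46.4 and 35.02 in head CLK, 31.6 and 23.9 in head CYC, 4.88 in body CLK replicate 1 and 18.5 in body CYC replicate 1, against 48.2 and 6.83 in head mock and 21.5 in body mock replicate 1. The next were X 12964925 to 12965216, X 10677741 to 10678055, X 5631990 to 5632535 and X 6170752 to 6171040, with 10.7 to 17.3 in replicate 1 and 4.45 to 8.75 in replicate 2. They were held by 4, 4, 4 and 2 tagged lists. The highest X peaks of head mock replicate 2, body mock replicate 1 and body mock replicate 2 were X 13200 to 13488 (10.4), X 4260122 to 4260364 (28.8) and X 14968497 to 14968755 (13.97). At the second of these sites head mock replicate 1 also had a peak, of 36.1, and head CLK replicate 1 had one of 35.1. The first had a peak of 6.19 in head CLK replicate 2, and the third one of 13.1 in body CLK replicate 1.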
